A study of Mus musculus with 6 samples.

Results

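Globin genes and red cell enzymes were followed in whole-lung RNA of mice that had breathed low oxygen and had or had not been given diphtheria toxin (DT). The set holds 7 genes, picked by name with the difference between the groups already known: the adult alpha globins Hba-a1 and Hba-a2, the adult beta globins Hbb-bs and Hbb-bt, the globin-like gene Hbq1b, the carbonic anhydrase Car1 and the mutase Bpgm. They are 7 of 25965 genes listed. All 7 entered the fit over 16708 genes, which needed a level worth 10 reads in the library of median depth (0.538 on the reads-per-million scale, RPM) in at least 3 libraries and 15 reads in total. Car1 reached that level in 3 DT libraries and 0 PBS libraries, so it could enter only through the group in which it was high, and Hbq1b reached it in 3 DT and 2 PBS libraries. Because the genes were chosen on this contrast, their values are given as a description and carry no test.

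Lung RNA came from 3 chimeric mice given DT and 3 given the vehicle, phosphate-buffered saline (PBS). All 6 mice carried the ZBTB46 DTR genotype, in which the toxin receptor is tied to Zbtb46, a transcription factor gene of classical dendritic cells, and the stated purpose of the toxin was to remove those cells. Dosing began 1 day ahead of the hypoxia with 40 ng of toxin per g of mouse and went on with 8 ng per g at intervals of 3 days, which made 3 doses. Mice of both groups spent 7 days at 10% oxygen, and the study looked for processes tied to a milder pulmonary hypertension after depletion. Among these 6 mice none lacked the receptor and none was kept in normal air, so effects of the toxin itself and of dendritic cell loss cannot be told apart, and nothing here shows what hypoxia did. The labels give no ages. They also do not say which cells of the chimeras came from the host, and Zbtb46 is known to be used by some endothelial and early erythroid cells besides dendritic cells. Mice are numbered 1 to 3 within a group, as separate animals.

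Haemoglobin is built from alpha-type and beta-type globin chains, each holding a haem that binds oxygen. Red cell precursors in the bone marrow, and in mice also the spleen, make globin messenger RNA in very large amounts, and young red cells still carry it into the blood, so any lung that holds blood contains some. The enzymes serve the same cells. Car1 interconverts carbon dioxide and bicarbonate, and Bpgm makes the bisphosphoglycerate that lowers the oxygen affinity of haemoglobin.

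The adult globins come as near-identical copies, which sets how far each copy can be read alone. The coding sequences of Hba-a1 and Hba-a2 differed at 1 of 429 bases (C381T, Hba-a1 base first, counted from 1 at the A of the start codon). Those of Hbb-bs and Hbb-bt differed at 1 of 444 bases (C417T, Hbb-bs base first, counted in the same way). Neither change alters the protein. The 60 coding bases around each difference, from GENCODE M21 on build GRCm38, show how little separates a read of one copy from a read of the other, with the differing base in capitals.
Hba-a1: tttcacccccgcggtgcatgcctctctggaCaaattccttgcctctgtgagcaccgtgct
Hba-a2: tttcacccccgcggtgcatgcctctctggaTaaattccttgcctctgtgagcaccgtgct
Hbb-bs: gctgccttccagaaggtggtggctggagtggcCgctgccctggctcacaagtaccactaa
Hbb-bt: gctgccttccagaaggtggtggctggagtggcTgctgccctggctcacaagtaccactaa
Each stretch holds a single base by which the copies can be told apart. Of all 75-base windows in the spliced transcript, 62.2% in Hba-a1 and 81.0% in Hba-a2 occurred letter for letter in the other copy. The shares were 64.3% for Hbb-bs and 56.6% for Hbb-bt. Hbq1b shared 31.6% of its windows with its neighbour Hbq1a, Car1 shared 6.61% with the predicted gene Gm5843, and Bpgm shared none. The sources used here do not give read length or say how reads with several matches were handled, so the split of reads within the alpha and the beta pair is uncertain and sums over each pair are given beside single copies. If such reads were dropped or counted more than once, the sums and the ratios built on them would be off as well, which was not tested. Between families the sequences are far apart: Hba-a1 matched Hbq1b at 66.7% and Hbb-bs at 56.5% of aligned coding positions.

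The promoters show what the globin copies share before the transcript. Printed here are the 110 bases just before the RefSeq start of 4 globin genes (RefSeq, GRCm38.p6), because Hbq1b stood far apart between the groups in reads and the adult globins did not. Capitals mark, on either strand, CACCC, the CCAAT box, the TATA-like TATAAA and ATATAA, and the GATA-type AGATAA and TGATAA.
Hba-a1 (chr11:32283562-32283671, plus strand): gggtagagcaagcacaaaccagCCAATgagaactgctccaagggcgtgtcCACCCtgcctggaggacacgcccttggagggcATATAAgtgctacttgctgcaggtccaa
Hbb-bs (chr7:103827929-103828038, minus strand): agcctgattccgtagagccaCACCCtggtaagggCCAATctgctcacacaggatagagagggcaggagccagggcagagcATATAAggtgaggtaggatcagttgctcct
Hbb-bt (chr7:103813924-103814033, minus strand): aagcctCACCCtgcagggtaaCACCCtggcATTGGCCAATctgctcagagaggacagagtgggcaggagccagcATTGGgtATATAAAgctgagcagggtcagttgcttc
Hbq1b (chr11:32286854-32286963, plus strand): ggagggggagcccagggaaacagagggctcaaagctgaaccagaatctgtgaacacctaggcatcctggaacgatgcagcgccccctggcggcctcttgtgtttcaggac
Within this stretch the printed adult globins each held CACCC, the CCAAT box and the TATA-like ATATAA, and the Hbq1b stretch held none of the marked motifs. The gene spans of the annotation start earlier than the RefSeq start for Hba-a1, Hbb-bs and Hbb-bt, so these 3 stretches lie inside or partly inside those longer spans. Over the full RefSeq window of 300 bases (250 of them before the start), 6 of the 7 genes had an entry, and Car1 had none. CCAAT was present in 6 of those 6, Hbq1b included, whose matches lie outside the printed stretch, against 37.4% of 32851 mouse promoters. CACCC was present in 4 of 6, the adult globins, against 57.5% of all promoters. ATATAA, which was added to the search after the sequences had been read, was present in 5 of 6 (the 5 globins, Hbq1b among them, all but Bpgm) against 9.82%, and TATAAA in 1 of 6 against 13.6%, while ATAAAA was in 0 of 6 against 18.5%. AGATAA was found only for Hbb-bs (11.2% of all promoters) and TGATAA for Hba-a1 and Hba-a2 (9.05%), whose windows share a run of 297 identical bases. CACACCC, which contains CACCC, was found for Hbb-bs (7.95% of all), as was TGACTCA with its reverse complement TGAGTCA. These are matches of letters, each searched on both strands. Whether they bear on the differences between the groups was not tested.

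The libraries were of similar depth. The totals behind the RPM values were 16766382, 18831936 and 18385836 reads in DT mice 1 to 3, against 18027304, 18763685 and 19084658 reads in PBS mice 1 to 3, so 1 read was worth between 0.0524 and 0.0596 RPM. Over all 16708 genes, 46 were higher and 1 was lower in DT mice at an adjusted p of 0.05 (limma, Benjamini-Hochberg), and the median log2 difference was 0.00. At an unadjusted p under 0.05 (limma), 836 of the 16708 were higher and 673 lower, the background for the unadjusted counts of the lists below. Zbtb46 itself had 87.2, 82.0 and 84.1 RPM in DT mice, against 108, 99.8 and 89.1 RPM in PBS mice (log2 difference -0.22 ± 0.07 SE, limma adjusted p = 0.411), and 0 of 12 classical dendritic cell genes passed the test by limma or limma-voom (5 were lower at an unadjusted p under 0.05), with 11 of 12 differences below zero and a list median of -0.27. The next most abundant, Irf8, had 75.5, 69.2 and 66.5 RPM in DT mice, against 68.2, 82.1 and 80.9 RPM in PBS mice. The largest differences were those of Xcr1 (-1.88), Cd209a (-1.80), Clec9a (-1.48), Itgae (-1.21) and Flt3 (-1.11). PBS mouse 1 stood apart from its group in these genes, with 4.55 RPM of Xcr1 and 1.78 RPM of Cd209a, where PBS mice 2 and 3 had 17.3 and 20.5 RPM of Xcr1 and 11.6 and 13.1 RPM of Cd209a and DT mice had 0.272 to 6.50 and 0.870 to 2.03 RPM. The same mouse was lowest in adult globin, so the globin results are also given without it. Leaving out DT mouse 1 left 0 genes higher and 0 lower by limma over all genes (630 and 497 at an unadjusted p under 0.05), and leaving out DT mouse 3 left 14 higher.

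The 4 adult globins differed between the groups by -0.15 to 0.28 on the log2(RPM + 1) scale, while Hbq1b and Car1 stood apart without overlap. Of the 7 genes, 1 (Hbq1b) was past the threshold in the higher direction, where 0.275% of all genes tested were, and 0 were past it in the lower direction, where 0.00599% of genes were. In 2 of the 7 (Hbq1b and Car1) every DT library was above every PBS library, which held for 7.65% of genes tested, and in 0 of the 7 every DT library was below, which held for 6.79%. The choice of the genes used this contrast, so nothing is read from these counts. In tissue RNA, fewer cells of a type and less RNA per cell cannot be told apart.

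**Figure D1:**
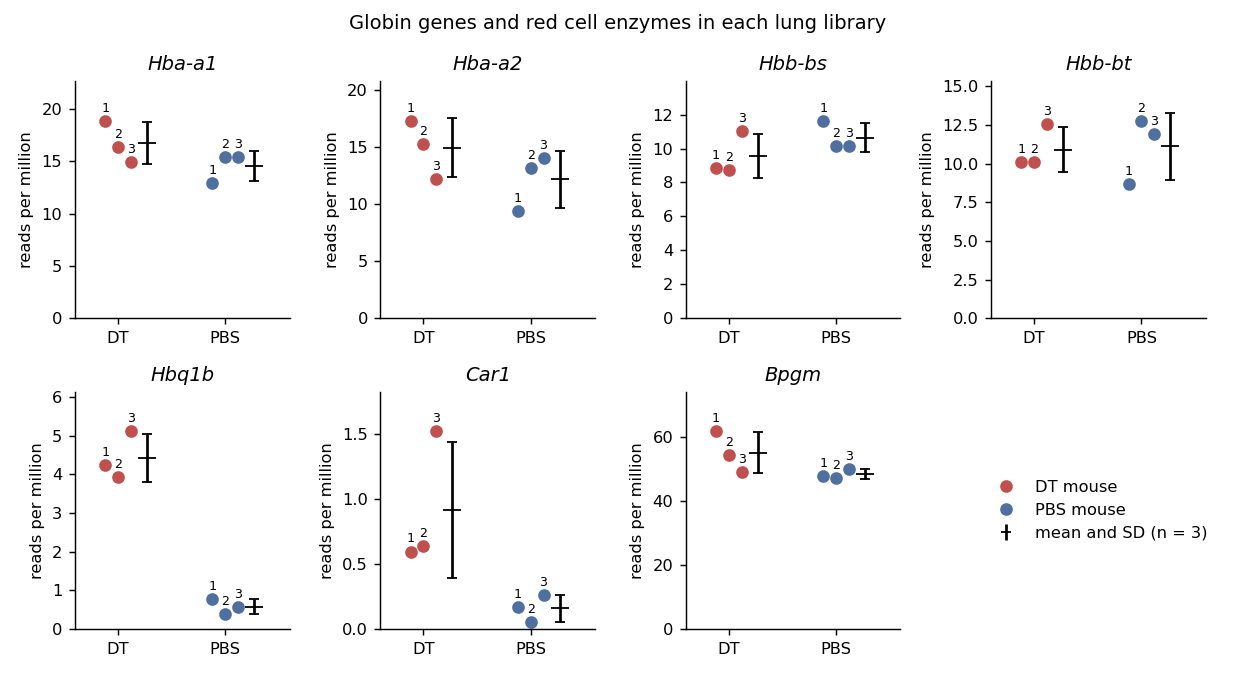
Level in RPM of each of the 7 genes in every library, DT mice left and PBS mice right, numbered by mouse, with the mean and SD of 3 mice as a bar; each panel has its own linear axis from 0. Hbq1b (3.93 to 5.11 RPM in DT mice, 0.373 to 0.777 RPM in PBS mice) and Car1 are the panels in which the groups do not overlap.

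Hba-a1 (ENSMUSG00000069919, chromosome 11, 32283511 to 32284465, plus strand, mm10), which encodes the adult alpha chain, had 18.9, 16.4 and 14.9 RPM in DT mice 1 to 3, against 12.9, 15.4 and 15.5 RPM in PBS mice 1 to 3. DT mouse 1 was the highest and PBS mouse 1 the lowest, and the groups overlapped. The means were 16.7 ± 2.02 RPM in DT mice and 14.6 ± 1.45 RPM in PBS mice (SD, n = 3 each), with a difference of 0.18 ± 0.12 (SE) on the log2(RPM + 1) scale, which is used for all differences given here. Its twin Hba-a2 (ENSMUSG00000069917, 32296489 to 32297298 on the same strand) had 17.4, 15.3 and 12.2 RPM in DT mice, against 9.37, 13.2 and 14.1 RPM in PBS mice. Here too DT mouse 1 was highest and PBS mouse 1 lowest of the 6, and the difference was 0.28 ± 0.17. Summed over both copies, alpha globin was 36.3, 31.7 and 27.1 RPM in DT mice and 22.3, 28.6 and 29.6 RPM in PBS mice, a difference of 0.23 ± 0.17 with DT mouse 3 inside the PBS range. For globin sums the SE came from the spread of the 3 mice in each group alone. For single genes it came from the limma fit over all genes, so the 2 kinds of SE are not alike.

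The beta globins overlapped between the groups as well. Hbb-bs (ENSMUSG00000052305, deposited under the older symbol Hbb-b1, chromosome 7, 103826534 to 103828096, minus strand) had 8.83, 8.76 and 11.0 RPM in DT mice, against 11.6, 10.1 and 10.2 RPM in PBS mice. DT mice 1 and 2 were the lowest of the 6, DT mouse 3 lay among the PBS mice, and the difference was -0.15 ± 0.12. Hbb-bt (ENSMUSG00000073940, deposited as Hbb-b2, chromosome 7, 103812524 to 103813996, minus strand) had 10.1, 10.1 and 12.6 RPM in DT mice, against 8.65, 12.8 and 11.9 RPM in PBS mice. The PBS mice held both the lowest and the highest value, with a difference of -0.01 ± 0.16 that turned positive when a mouse was left out (range -0.17 to 0.09). Summed beta globin was 18.9, 18.9 and 23.6 RPM in DT mice and 20.3, 22.9 and 22.1 RPM in PBS mice, a difference of -0.09 ± 0.11.

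All 4 adult globins together made up 55.2, 50.6 and 50.7 RPM in DT mice 1 to 3, against 42.6, 51.5 and 51.6 RPM in PBS mice 1 to 3. The means were 52.2 ± 2.61 RPM in DT mice and 48.6 ± 5.16 RPM in PBS mice (SD, n = 3 each), and the difference of 0.11 ± 0.10 was about as large as its standard error. PBS mouse 1 was the lowest, and the other 5 libraries lay between 50.6 and 55.2 RPM. Without it the difference was 0.02, with 0.10 for Hba-a1, 0.11 for Hba-a2, -0.09 for Hbb-bs and -0.17 for Hbb-bt, while Hbq1b stood at 1.88, Car1 at 0.70 and Bpgm at 0.17. The summed reads behind these levels were 925, 952 and 933 in DT mice 1 to 3, against 768, 966 and 985 in PBS mice 1 to 3. DT mouse 1, highest in RPM, thus had fewer reads than DT mice 2 and 3 and PBS mice 2 and 3. Its library had the smallest total, 16766382 reads, so its rank in RPM rests on the scaling for depth.

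The balance between alpha and beta reads varied more among DT mice than among PBS mice. The alpha copies gave 65.7%, 62.7% and 53.5% of adult globin reads in DT mice 1 to 3, against 52.3%, 55.5% and 57.3% in PBS mice 1 to 3. The Wilson 95% intervals were 62.6 to 68.7% for DT mouse 1 and 50.3 to 56.7% for DT mouse 3, so these 2 mice of 1 group differed by more than counting error, the error these intervals cover. The group means were 60.6 ± 6.38% in DT mice and 55.0 ± 2.49% in PBS mice (SD, n = 3 each), and DT mouse 3 lay within the PBS range. Within the alpha pair Hba-a1 took 51.8 to 54.9% of reads in DT mice and 52.3 to 58.0% in PBS mice. Within the beta pair Hbb-bs took 46.5 to 46.8% in DT mice, against 57.4%, 44.2% and 46.1% in PBS mice 1 to 3. PBS mouse 1 thus had the largest share of the first copy in both pairs.

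**Figure D2:**
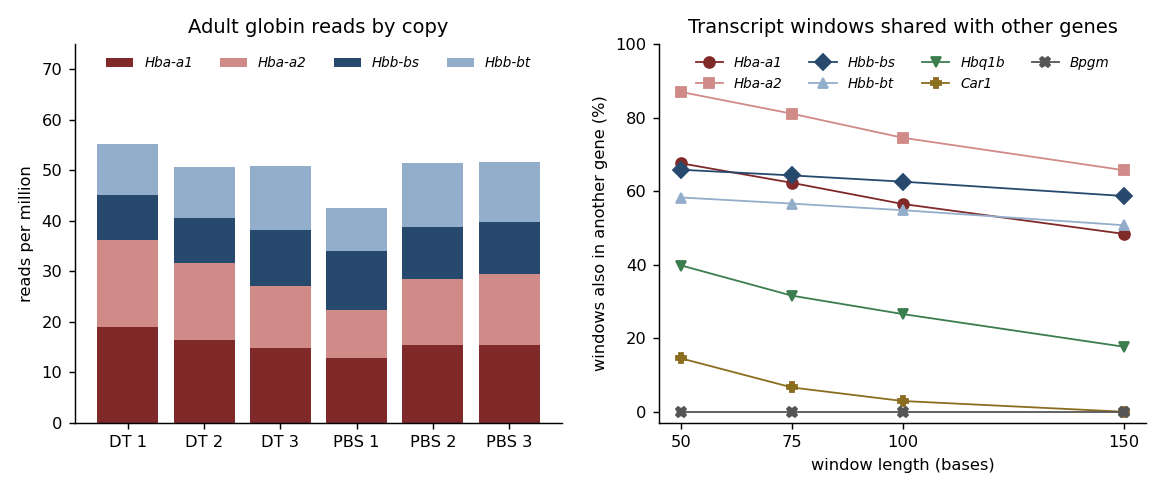
Left, RPM of the 4 adult globin copies stacked in each library (linear axis from 0); right, share of transcript windows of 50, 75, 100 and 150 bases that also occur in another gene. The stacks reach 50.6 to 55.2 RPM in DT mice and 42.6 to 51.6 RPM in PBS mice, and the globin pairs share most of their windows at 75 bases whereas Bpgm shares 0.

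Compared per length, the adult globins ranked between the 71.9 and 93.9 percentiles of genes tested in DT mice and between the 76.6 and 88.1 percentiles in PBS mice. The 4 copies averaged 20.6 (Hba-a1), 22.4 (Hba-a2), 12.4 (Hbb-bs) and 15.5 (Hbb-bt) RPKM (RPM per kilobase of exon) in DT mice, against 18.0, 18.3, 13.9 and 15.8 RPKM in PBS mice in the same order. Hba-a2 was the highest of the 4 in both groups. The anion exchanger Slc4a1, a red cell membrane protein, reached 15.7 RPKM in DT mice and 3.89 RPKM in PBS mice, so the summed adult globin level per length was 4.14, 4.75 and 4.77 times that of Slc4a1 in DT mice 1 to 3, against 12.5 to 21.3 times in PBS mice, with PBS mouse 3 lowest. The ratios did not overlap between the groups. Slc4a1 was at 14.5 to 18.1 RPKM in DT mice and 2.70 to 5.61 RPKM in PBS mice. Summed adult globin overlapped, at 68.9 to 75.1 RPKM in DT mice and 57.4 to 70.3 RPKM in PBS mice. Whether the globin term follows RNA abundance was not tested, as given below for read density, and this limits the ratios.

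Read density bears on how these levels can be read. Hba-a1 and Hba-a2 had 0.352 and 0.372 reads per exonic base averaged over the 6 libraries, Hbb-bt had 0.288, Bpgm 0.263 and Hbb-bs 0.241, where the median of 16471 genes was 0.137 and the 99th percentile 0.583. No gene exceeded 1.68. Among genes with 0.03 to 0.1 reads per base the variance of reads over libraries was 4.01 times the mean (median over genes). In that range 11.9% of genes had a variance below the mean. Counting alone gives a ratio of 1 at equal depth. The reads were not scaled for depth here, so unequal depth adds to the ratio that counting gives. At 0.4 reads per base and above the median ratio was 1.84, and 34.4% of genes had a variance below the mean. Jund, a transcription factor gene, had 1422 to 1445 reads in the 6 libraries, an SD of 9.22 where counting alone at equal depth would give 37.9. Sftpc and Scgb1a1, known as very abundant RNAs of alveolar type 2 and club cells, were at 8.78 ± 0.602 and 3.88 ± 0.267 RPM in DT mice, against 9.04 ± 0.120 and 4.02 ± 0.275 RPM in PBS mice (SD, n = 3 each), and their variances were 0.388 and 0.446 times the mean. The variance of the adult globins was 3.05 to 8.59 times the mean. Whether values at these densities follow RNA abundance was not tested, and the sources used here do not say whether reads starting at one position were counted once. Hbq1b (0.0623 reads per base) and Car1 (0.00788) lay far below these densities.

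**Figure D3:**
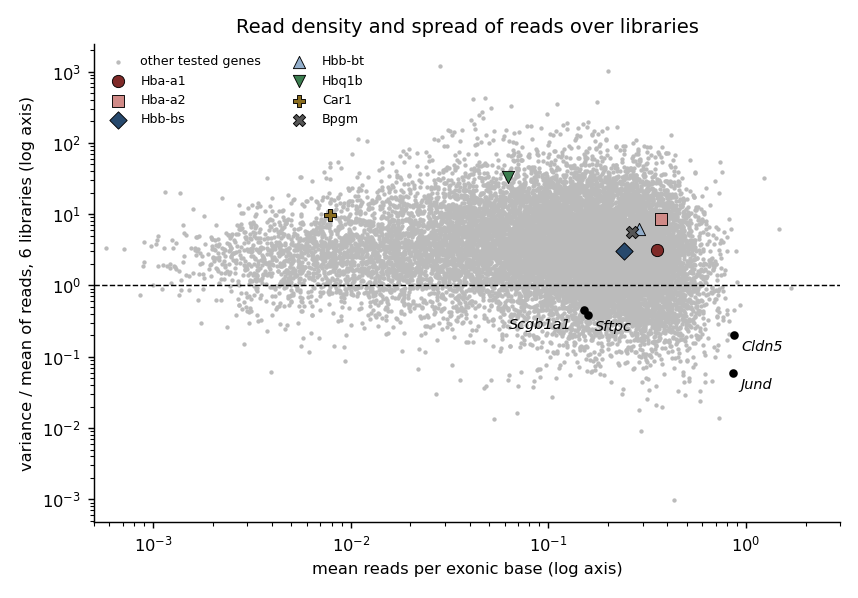
Variance of reads (not scaled for depth) divided by their mean over the 6 libraries against mean reads per exonic base (both log axes). Each grey dot is a tested gene whose variance was above 0. Coloured markers show the 7 genes and black dots Sftpc, Scgb1a1, Cldn5 and Jund. The dashed line marks the ratio of 1 that counting alone gives at equal depth. The adult globins and Bpgm sit at 0.241 to 0.372 reads per base, Hbq1b at 0.0623 and Car1 at 0.00788.

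Hbq1b showed the largest difference of the 7 genes. It encodes a theta-type globin of the alpha cluster, whose contribution to haemoglobin is not established, and lies between the alpha copies (ENSMUSG00000073063, chromosome 11, 32286965 to 32287784, plus strand). It had 4.23, 3.93 and 5.11 RPM in DT mice 1 to 3, against 0.777, 0.373 and 0.576 RPM in PBS mice 1 to 3. Every DT library was above every PBS library by a wide margin, from 71, 74 and 94 reads in DT mice and 14, 7 and 11 reads in PBS mice. The means were 4.43 ± 0.614 RPM in DT mice and 0.575 ± 0.202 RPM in PBS mice (SD, n = 3 each), a difference of 1.79 ± 0.16 that understates the change of so low a gene. The ratio of pooled read rates, 239 reads over 32, was 7.73 with an exact 95% interval of 5.33 to 11.6 for counting error only. Its difference lay between 1.69 and 1.88 whichever mouse was left out.

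Around Hbq1b the globin copies differed by unequal amounts. Hba-a1 and Hba-a2, which flank it, differed by 0.18 and 0.28 as given above. The ratio of summed adult globin to Hbq1b per length was 12.9, 12.7 and 9.78 in DT mice, against 53.6, 136 and 88.5 in PBS mice. Whether the adult globin values follow RNA abundance at their read density was not tested, which limits this ratio and the comparison with Hba-a1 and Hba-a2. Its close copy Hbq1a (chromosome 11, 32300069 to 32300873), with which it shares windows, had 11, 7 and 4 reads in DT mice, against 0, 0 and 2 reads in PBS mice. Every DT library was above every PBS library here too, as in Hbq1b. Hbq1a was too low to be tested, and its read-rate ratio of 11.4 had an exact interval of 2.80 to 99.9. Its reads were fewer than those of Hbq1b in every library. Of the 6 tested genes within 100 kb of the alpha cluster that are not globins, among them Nprl3, whose introns are known to hold the alpha globin enhancers, 0 passed the test in either direction (limma adjusted p 0.453 to 0.996, 1 higher and 1 lower at an unadjusted p under 0.05, 0 by limma-voom). Nprl3 stood at 33.0 ± 1.87 RPM in DT mice and 33.0 ± 1.10 RPM in PBS mice (SD, n = 3 each).

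Car1, which makes the cytosolic carbonic anhydrase I of red cells and gut epithelium (ENSMUSG00000027556, chromosome 3, 14766217 to 14778459, minus strand), was the lowest of the 7. It had 0.596, 0.637 and 1.52 RPM in DT mice 1 to 3, against 0.166, 0.0533 and 0.262 RPM in PBS mice 1 to 3, from 10, 12 and 28 reads in DT mice and 3, 1 and 5 reads in PBS mice. The groups did not overlap, and DT mouse 3 had more reads than the other 2 DT mice together. The means were 0.919 ± 0.524 RPM in DT mice and 0.161 ± 0.104 RPM in PBS mice (SD, n = 3 each), a difference of 0.70 ± 0.21. Pooled read rates, 50 reads over 9, had a ratio of 5.75 with an exact 95% interval of 2.80 to 13.3 for counting error. Without a mouse the difference was 0.48 to 0.81, and PBS mice 1 and 2 lay at or under 3 reads, the floor used for a single library.

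Bpgm, the bisphosphoglycerate mutase (ENSMUSG00000038871, chromosome 6, 34476207 to 34505613, plus strand), was well expressed in both groups. It had 61.8, 54.4 and 49.1 RPM in DT mice 1 to 3, against 47.9, 47.2 and 50.04 RPM in PBS mice 1 to 3. DT mice 1 and 2 were above all PBS mice, and DT mouse 3 was below PBS mouse 3. The means were 55.1 ± 6.37 RPM in DT mice and 48.4 ± 1.48 RPM in PBS mice (SD, n = 3 each), and the difference was 0.18 ± 0.08, or 0.09 without DT mouse 1. Per length it reached 15.4 RPKM in DT mice and 13.5 RPKM in PBS mice, which lay between Hbb-bs and Hbb-bt in DT mice and below both in PBS mice.

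The 7 genes did not follow one order of mice. In DT mice Hba-a1, Hba-a2 and Bpgm were highest in mouse 1 and lowest in mouse 3, whereas Hbb-bs, Hbb-bt, Hbq1b and Car1 were highest in mouse 3. Among PBS mice, mouse 1 was lowest for Hba-a1, Hba-a2 and Hbb-bt and highest for Hbb-bs and Hbq1b. With 3 mice in a group these orders are a description.

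Other globins were scarce or did not pass the test. Of 10 further globin genes, 8 were listed and 3 were dense enough to test, with 0 higher, 0 lower and a median difference of 0.07 beside 0.00 over all genes (limma, also 0 by limma-voom and 0 at an unadjusted p under 0.05). The embryonic beta-type Hbb-y had 7, 3 and 5 reads in DT mice, against 1, 1 and 4 reads in PBS mice. Hba-x, the embryonic alpha-type gene, had 1 read in DT mice and 0 in PBS mice, and Hbb-bh1 and Hbb-bh2 had 0 reads in all 6 libraries, where 3 reads would be 0.157 to 0.179 RPM. The globins of other tissues did not pass the test: cytoglobin (Cygb), of fibroblasts, was at 61.1 ± 4.76 RPM in DT mice and 58.1 ± 1.79 RPM in PBS mice, and myoglobin (Mb), of muscle, at 17.5 ± 4.64 RPM in DT mice and 22.2 ± 0.620 RPM in PBS mice (SD, n = 3 each). The Mb difference was -0.36 ± 0.16, with DT mice 1 and 3 lowest and DT mouse 2, at 22.7 RPM, inside the PBS range.

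Among genes that regulate globin transcription, 3 of 12 measured rose in DT mice, 0 fell and 9 did not pass, with a median difference of 0.05 (Ahsp, a further gene of the list, was not found under that symbol). At an unadjusted p under 0.05 (limma), 5 were higher and 1 lower, and limma-voom called 2 higher. Nfe2, among the 9, did not overlap between the groups, with 33.8, 27.6 and 32.3 RPM in DT mice, against 21.2, 16.8 and 16.9 RPM in PBS mice (0.74 ± 0.11, limma adjusted p = 0.0549). Klf1, which binds CACCC elements and activates the beta globin gene, had 18.8, 13.5 and 15.6 RPM in DT mice, against 3.05, 0.533 and 0.734 RPM in PBS mice (difference 2.93 ± 0.34, limma adjusted p = 0.0145). All DT libraries were above all PBS libraries by more than 10 RPM. Hemgn, a nuclear protein of blood precursors, rose by 2.17 ± 0.31 (adjusted p = 0.038, limma) and Gata1, which binds GATA motifs in erythroid genes, by 1.68 ± 0.18 (adjusted p = 0.0111, limma). The calls of these 3 were lost without DT mouse 1 (adjusted p 0.158 for Klf1, limma) and without DT mouse 3. The differences of Klf1, Gata1 and Hemgn were then 2.81, 1.69 and 1.98 without DT mouse 1, and 2.94, 1.55 and 2.27 without DT mouse 3. Klf1 also missed the threshold on the deposited values (adjusted p = 0.0515, limma), and Hemgn missed it under 10 of 14 alternatives (adjusted p 0.0529 to 0.234, limma), other scalings and limma-voom among them.

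Genes of the red cell membrane gave the largest count, 5 of 11 higher, 0 lower and 6 that did not pass, with a median difference of 0.70. At an unadjusted p under 0.05 (limma), 6 were higher and 0 lower, and limma-voom called 5 higher. Epb42, a protein that anchors the membrane skeleton, had 28.8, 18.5 and 22.0 RPM in DT mice, against 3.33, 1.71 and 2.31 RPM in PBS mice (2.81 ± 0.21, limma adjusted p = 0.0058). Slc4a1 rose by 2.02 ± 0.23, and Rhag, an ammonium channel of the Rh complex, by 1.90 ± 0.22. Add2, which caps and links the membrane skeleton, rose by 1.53 ± 0.14 and the blood group gene Rhd by 1.51 ± 0.18 (limma adjusted p 0.0058 to 0.0145 over the 5). Without DT mouse 1, 0 of the 5 passed, and without DT mouse 3, 2 passed (Epb42 and Add2). The 5 differences lay between 1.38 (Rhd) and 2.65 (Epb42) without DT mouse 1, and between 1.51 (Rhd) and 2.83 (Epb42) without DT mouse 3. With no depth scaling the calls of Slc4a1 and Rhag were lost too, as were those of Klf1, Gata1 and Hemgn, and that of Rhd was lost without PBS mouse 2. Both lists hold genes that had been seen to differ before they were written down, so their counts are not independent evidence of direction.

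Haem synthesis and iron uptake, which supply the haem of globin chains, had 0 of 14 genes past the threshold in either direction (median 0.12, lowest limma adjusted p 0.425). At an unadjusted p under 0.05, 5 were higher and 0 lower, and limma-voom called 0. Alas2, which makes the first enzyme of haem synthesis in red cell precursors and had the list's largest difference, stood at 53.9, 47.6 and 33.2 RPM in DT mice, against 12.1, 32.3 and 32.0 RPM in PBS mice. Like the alpha globins it was highest in DT mouse 1, lowest of the DT mice in mouse 3 and lowest of all in PBS mouse 1, and it differed by 0.89 ± 0.35 with the nearest mice of the groups less than 1 RPM apart. The abundant transferrin receptor Tfrc was at 101 ± 10.4 RPM in DT mice and 87.5 ± 7.28 RPM in PBS mice (SD, n = 3 each), and Steap3, an iron reductase, at 70.2 to 76.8 RPM in DT mice and 73.3 to 75.8 RPM in PBS mice.

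**Figure D4:**
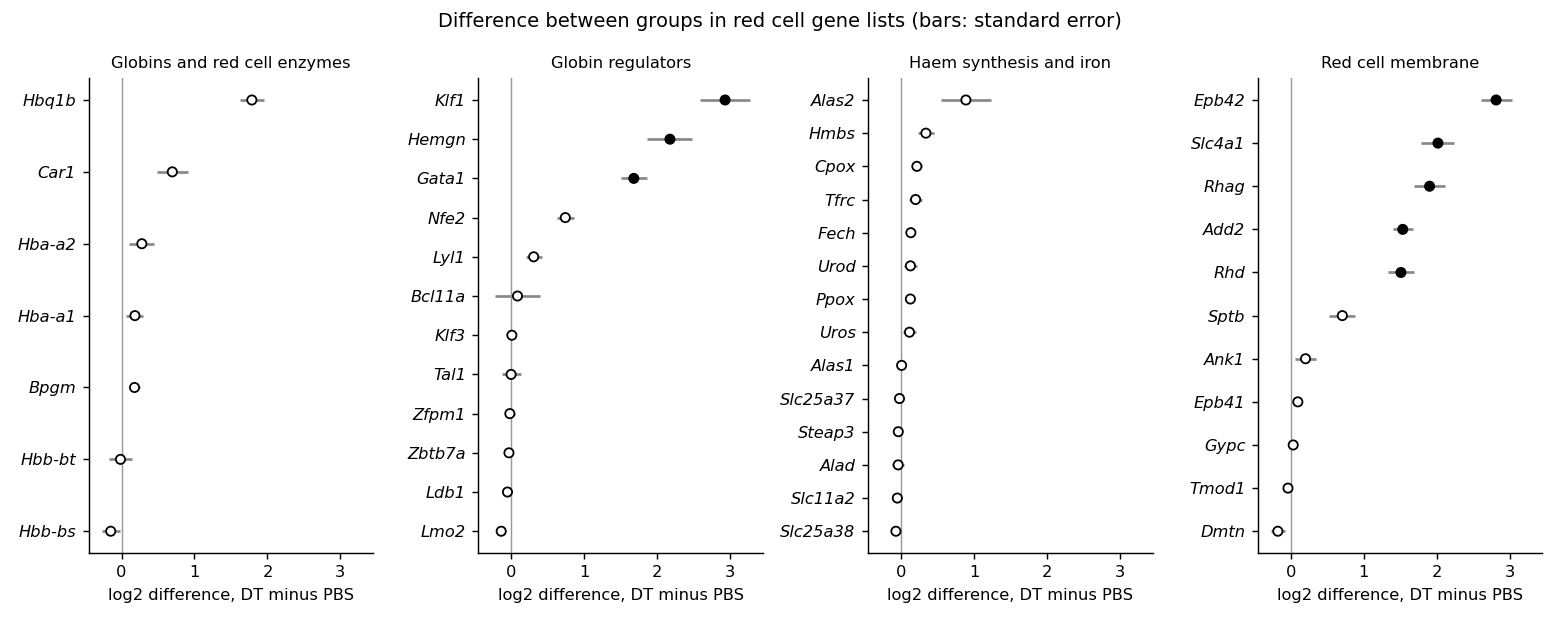
Log2 difference between DT and PBS mice (limma, bars show the standard error) for the 7 genes and for 3 other gene lists of the red cell line; filled circles passed an adjusted p of 0.05, and the first panel is drawn open throughout because its genes were chosen on this contrast. Filled circles number 3 of 12 among globin regulators, 0 of 14 for haem synthesis and iron, and 5 of 11 for the red cell membrane.

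The relatives of the 2 enzymes did not pass the test. Of 15 further carbonic anhydrases, 12 could be tested, 0 were higher, 0 were lower and the median was -0.17 (limma, 2 higher and 1 lower at an unadjusted p under 0.05). Car8 stood at 73.3 ± 5.60 RPM in DT mice and 76.3 ± 1.75 RPM in PBS mice, and Car2 at 49.6 ± 3.07 RPM in DT mice and 44.7 ± 2.30 RPM in PBS mice (SD, n = 3 each). Car13, which like Car2 lies near Car1 on chromosome 3 and had the list's largest positive difference, was at 17.5, 16.6 and 16.4 RPM in DT mice, against 11.0, 12.1 and 11.7 RPM in PBS mice (0.50 ± 0.09, limma adjusted p = 0.097). The groups did not overlap in Car13. Of 17 glycolytic genes, the pathway from which Bpgm branches, 0 were higher and 0 lower (median 0.04, 3 lower at an unadjusted p under 0.05 by limma), with Pkm at 86.0 ± 4.98 RPM in DT mice and 83.8 ± 2.67 RPM in PBS mice and Hk1 at 85.0 ± 4.40 RPM in DT mice and 81.7 ± 2.19 RPM in PBS mice. Genes that protect red cells from oxidants gave 0 calls of 13 (median 0.04, 0 at an unadjusted p under 0.05 by limma), with Gclc, which starts glutathione synthesis, at 99.7 ± 6.75 RPM in DT mice and 92.5 ± 2.96 RPM in PBS mice and the thioredoxin reductase Txnrd1 at 85.7 ± 4.84 RPM in DT mice and 86.2 ± 5.45 RPM in PBS mice. Genes that clear free haemoglobin and iron gave 0 of 9 (median 0.02, 1 higher at an unadjusted p under 0.05 by limma), with the haem-haemopexin receptor Lrp1 at 304 ± 19.5 RPM in DT mice and 258 ± 28.6 RPM in PBS mice and the haem transporter Slc48a1 at 87.6 ± 3.29 RPM in DT mice and 89.02 ± 2.82 RPM in PBS mice (SD, n = 3 each). By limma-voom these 4 lists also gave 0 calls.

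Markers of other cells that blood or lung could bring were measured beside these. Of 10 platelet genes 0 passed by limma or limma-voom (median 0.21, 0 at an unadjusted p under 0.05), and their summed level was 46.9 to 77.6 RPM in DT mice and 46.8 to 60.9 RPM in PBS mice. Gp1bb and Itga2b led that list, at 14.9 ± 2.39 and 13.2 ± 3.77 RPM in DT mice, against 15.2 ± 2.99 and 9.06 ± 1.34 RPM in PBS mice. Of 10 granulocyte genes 0 passed by either (3 higher at an unadjusted p under 0.05). All 10 differences were above zero (median 0.18, S100a8 at 0.00015), as were 8416 of 16708 over all genes. The sums, 146 to 183 RPM in DT mice and 131 to 141 RPM in PBS mice, did not overlap. In 2 of the 10 (Ngp and Mmp8) every DT library was above every PBS library, which held for 7.65% of genes tested. Ngp had the list's largest difference, with 8.17, 18.1 and 18.6 RPM in DT mice, against 7.82, 4.16 and 5.61 RPM in PBS mice (1.17 ± 0.31, limma adjusted p = 0.308). Mmp8 differed by 0.61 ± 0.10 (limma adjusted p = 0.062). Ltf and Csf3r led the granulocyte list, at 43.6 ± 8.91 and 28.4 ± 2.21 RPM in DT mice, against 36.4 ± 7.69 and 27.3 ± 2.91 RPM in PBS mice. Of 12 lung epithelial and endothelial genes 0 passed by either (median 0.04, 0 at an unadjusted p under 0.05), with sums of 833 to 928 RPM in DT mice and 817 to 860 RPM in PBS mice. Epas1 and Cdh5 led it, at 220.2 ± 12.6 and 160 ± 7.95 RPM in DT mice, against 213 ± 7.22 and 157 ± 6.04 RPM in PBS mice (SD, n = 3 each for these 3 lists). The part of blood content in the globin and red cell values was not tested.

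The genes whose log2(RPM + 1) ran most like summed adult globin, Car1 or Bpgm over the 6 libraries were listed by Pearson's r, as a description of 6 points that include both groups. For summed adult globin they were Ap5b1 (r = 0.998), Rabgap1l, Arhgef26, Arhgef17 and Slc22a23 (0.993), and 601 genes reached 0.9. For Car1 they were Slc16a10 (0.991), Mc5r, Gm2822, Ercc6l2 and Msl3l2 (0.977), with 92 genes at 0.9 or above. For Bpgm they were Ly6c1 (0.991), Tmprss4, Tinagl1, Spint1 and Rab15 (0.978), with 199 genes at that level. The genes of the set were removed before the ranking, so its globins, Car1 and Bpgm could not be among these 15. Whether they ran alike is therefore not shown by this ranking. None of the 15 is a globin from outside the set or belongs to the red cell lists.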

How the data were processed

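RNA-seq of whole lung was analysed in 6 libraries, 3 DT and 3 PBS, prepared from messenger RNA per the labels' protocols. The authors deposited 1 table of log2 RPM values for 25965 genes. Per the submitters' processing notes, FastQC, Trimmomatic and the mm10 build were used; aligner, counter and strand handling are not stated in the sources used here. On the linear scale 100% of values were whole multiples of 1 read (tolerance 0.1%), genes without reads carrying 0.9 of a read, so reads per gene and depth were recovered; 69.8 to 73.1% of each total fell in listed genes. Genes were tested with limma 3.58.1 (trend, 2-sided, Benjamini-Hochberg) on log2(RPM + 1), after the filter given above; 1 RPM as pseudocount understates changes of low genes. Lengths came from GENCODE M21, which held 25035 of the identifiers (57 were listed more than once); RPKM used all exonic bases. The fit was tested on simulated data. Intervals are 95%, Wilson for shares and exact for ratios, and cover counting error only; 3 reads were the floor. The members and all gene lists were chosen with earlier results of these data known; 2 genes of the membrane list are not reported here and are left out of its counts. Named genes are the members, up to 5 genes per list past the threshold or else its 2 most abundant, and the 5 genes most like the globin sum, Car1 and Bpgm. Nprl3, Nfe2, Alas2, Car13, Ngp, Mmp8, Xcr1, Cd209a, Clec9a, Itgae, Flt3, Hbq1a, Jund, Sftpc, Scgb1a1 and the embryonic globins were named after their values were seen. Alternatives were other scalings, filters, pseudocounts, limma-voom on the reads, a replicate block and leaving out each mouse.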

Additional observations from a re-analysis of the deposited data

How the results depend on the processing

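Summed adult globin stayed above zero under all 14 alternatives, between 0.06 and 0.11 under other settings and between 0.02 and 0.15 with a mouse left out. The differences of Hba-a1, Hba-a2, Hbb-bs and Bpgm kept their sign in all 14. The other filters and the replicate block cannot change these differences or that of the sum, so they are no check on them. Hbq1b and Car1 were larger with a smaller pseudocount (2.21 and 1.06 at 0.5 RPM), on the deposited values (3.00 and 2.65) and by limma-voom (2.94 and 2.40), and Car1 left the test under the stricter filter. Among all genes tested, 46 were higher, but 17 with no depth scaling (a setting chosen after seeing the data, which moved the median of all genes to -0.05), 8 with the replicate block and 0 to 56 with a mouse left out. The 1 lower gene became 0 with median-of-ratios scaling, with no depth scaling and with the block, and 0 to 90 with a mouse left out. The 1 called gene of the set became 0 with the block and 0 to 1 with a mouse left out. The 8 calls in the other red cell lists became 3 with no depth scaling, 1 with the block and 0 to 9 with a mouse left out. The labels do not say that same-numbered mice were paired. Deviations of same-numbered mice correlated at 0.08, 0.27 and -0.10 across genes, and those of mice with different numbers at -0.26 to 0.14. With 3 mice in a group these values cannot settle whether the numbers pair the groups. The block uses only shared numbers, so no conclusion is drawn from its smaller counts. The cause of these changes was not tested. Counts of 1 to 28 reads limit Car1, and read density limits the adult globin levels and the ratios built on them. Shared sequence limits each globin copy. It also limits the pair sums, the alpha shares and the per-length ratios if reads with several matches were dropped or counted more than once.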
